A study of Mus musculus with 12 samples.

Results

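The type I interferon-stimulated genes described here are a list of 33 well-known targets of the pathway, chosen by name with earlier results of these data known, of which 32 were found by symbol among the 32285 gene rows of the matrices; Mx1 was not analysed here. The genes were followed in leukocytes of B16-F10 tumours, a transplantable mouse melanoma injected into the skin of B6.129S7-Rag1tm1Mom/J mice. All 6 mice carried the Rag1 mutation, so that any T cell in the tumours was transferred, and each was given CD8+ T cells of the Pmel Thy1.1 line, whose transgenic receptor sees a melanocyte antigen. In the 3 CAL-101 mice the transferred cells had been cultured with CAL-101 (idelalisib), which blocks PI3Kδ, a lipid kinase of lymphocytes, and in the 3 control mice with vehicle, so that the drug was given to the T cells in culture and not to the mice. The sources used here do not give the time after transfer or the age of the mice. Live CD45.2+ cells were sorted, stained with barcoded antibodies and profiled by droplet-based 3′ RNA sequencing, and the authors deposited a cell type and a cluster number for each of 45477 cells.

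Type I interferons bind the receptor pair IFNAR1 and IFNAR2 on almost every nucleated cell, and the kinases JAK1 and TYK2 then act on factors that include STAT2 and IRF9, parts of the complex ISGF3. ISGF3 binds the interferon-stimulated response element, a direct repeat built around GAAA, in front of a shared set of genes whose products block viral RNA and protein synthesis, sense foreign nucleic acid, or feed back on the pathway. In tumours the same programme is known both for supporting antigen presentation and, when it persists, for accompanying T cell dysfunction.

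The matrices held 75716841 to 97933109 RNA UMIs (unique molecular identifiers, each standing for 1 captured RNA molecule) per mouse. The T class, made of all cells that the authors labelled as T cells with or without CD8+ or CD4+, held 32861 cells, 3993 to 6530 per mouse with 53687665 to 87764290 UMIs. NK cells, the main host class, held 11687 cells, 571 to 3498 per mouse. The labels were checked against markers: the summed level of Cd3d, Cd3e, Cd3g, Cd8a, Cd8b1 and Trac was 2745 to 3387 CPM (counts-per-million values over all gene UMIs of the class) in T cells and 184 to 309.6 CPM in NK cells. Any 2 libraries shared 8 to 31 cell barcodes, at most 0.402% of the smaller one, and pairs of mice of 1 group lay beyond counting noise (chi-square over its degrees of freedom 8.54 to 45.3 in T cells), so that none was counted as a repeat of another. In these summed libraries more RNA per cell cannot be told apart from more cells with the RNA; values per cell are given after the tests.

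Promoter sequence is shown for 7 of the genes because the motif that gives the group its name can be read in it. RefSeq windows on GRCm38.p6, from 250 bases before to 50 bases after each transcript start, matched 25 of the 32 genes. The core repeat, spelled GAAA, any 2 bases, GAAA and searched on both strands, lay in the window of 13 of the 25 genes (52.0%), against 3.99% of the 27025 genes of the table. It lay in 10 of the 16 genes with a window that rose in T cells below (62.5%) and in 3 of the 9 that did not pass (33.3%). The motif TTCNNNGAA, the site bound by STAT dimers, lay in 5 of the 25 genes with a window (20%) and in 9.55% of all genes. Isg15, Ifit1, Ifit3, Rsad2 and Ifi203 rose in T cells, while Stat2 and Bst2 carry the same repeat and did not pass the test. The 120 bases shown lie before the transcript start, on the strand of the gene, with every base of a match in capitals (a match on the other strand reads as the reverse complement, and neighbouring matches may overlap).
Isg15, chr4:156200826-156200945, minus strand: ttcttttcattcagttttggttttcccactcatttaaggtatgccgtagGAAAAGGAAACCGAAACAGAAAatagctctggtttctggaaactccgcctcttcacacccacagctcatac
Ifit1, chr19:34640739-34640858, plus strand: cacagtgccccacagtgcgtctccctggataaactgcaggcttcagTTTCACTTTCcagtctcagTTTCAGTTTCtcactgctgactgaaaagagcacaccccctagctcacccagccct
Ifit3, chr19:34583335-34583454, plus strand: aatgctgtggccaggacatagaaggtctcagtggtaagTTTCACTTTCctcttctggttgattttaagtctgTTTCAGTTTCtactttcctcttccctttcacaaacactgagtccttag
Rsad2, chr12:26456508-26456627, minus strand: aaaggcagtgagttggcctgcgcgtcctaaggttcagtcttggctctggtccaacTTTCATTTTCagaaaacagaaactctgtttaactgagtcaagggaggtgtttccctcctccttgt
Ifi203, chr1:173942493-173942612, minus strand: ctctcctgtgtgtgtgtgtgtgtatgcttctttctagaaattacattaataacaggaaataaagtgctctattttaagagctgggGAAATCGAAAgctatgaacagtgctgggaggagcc
Stat2, chr10:128270248-128270367, plus strand: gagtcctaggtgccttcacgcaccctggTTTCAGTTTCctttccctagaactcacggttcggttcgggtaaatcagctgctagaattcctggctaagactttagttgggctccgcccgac
Bst2, chr8:71537535-71537654, minus strand: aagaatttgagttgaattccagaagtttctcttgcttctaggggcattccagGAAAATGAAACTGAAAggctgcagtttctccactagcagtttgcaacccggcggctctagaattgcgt
Isg15 carried 3 overlapping matches, Bst2 2 overlapping ones, and Ifit1 and Ifit3 2 separate ones each.

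Across cell types, the genes were highest in neutrophils and several times lower in T and NK cells. The summed level of the 32 genes was 13878 CPM on average over the 6 mice in neutrophils (lowest mouse 9087, highest 17779), 6567 CPM in cells labelled monocytes (3388 to 10793) and 4224 CPM in dendritic cells (3104 to 6055). It was 1749.7 CPM in T cells (1381 to 2338) and 1521 CPM in NK cells (1259 to 1718). Within each mouse neutrophils stood above monocytes, and T cells above NK cells (by least in control mouse 1, 1615 against 1604 CPM), although the ranges over mice overlapped. Monocytes stood above dendritic cells in each mouse but CAL-101 mouse 2 (5882 against 6055 CPM). Deposited cluster 10, the highest cluster below, held 726 cells, 35 of them T-labelled. As 414 cells in all were labelled neutrophils, it also held cells of other labels. How many of those were labelled monocytes was not counted here, and their part in the monocyte level was not tested. Neutrophils (414 cells), monocytes (360) and dendritic cells (127) were few, and 3 labels with fewer cells, basophils, B cells and progenitors, are left out because they had 0 or 1 cell in some mice.

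Among the 14 deposited clusters, cluster 10 had the highest sum (9104 CPM, 7549.9 to 11508) and 26 of the 32 genes had their highest mean there. Isg15, a ubiquitin-like protein that is conjugated to other proteins and also secreted, averaged 1624 CPM in cluster 10, and Rsad2, the radical enzyme viperin, averaged 1199.9 CPM. Stat2 and Dhx58 were highest in cluster 11, Bst2 in cluster 12, Ifi44 in cluster 0, and Ifi203 and Ifi35 in cluster 5. Of clusters 1 to 5, which hold most T cells, cluster 5 had the highest sum (2449 CPM, 1732 to 2930.5) and cluster 4 the lowest (1343 CPM, 1122 to 1699), and clusters 1, 2 and 3 lay between with overlapping ranges. Cluster 13 was lowest of all (486 CPM, 414 to 584). The patterns of the single genes over the 14 clusters were alike: the correlation of each gene with the sum of the others had a median of 0.87 and was at least 0.8 for 21 of 32. Ifit1 (0.98), Ifit2 (0.97), Oasl2 (0.96) and Rtp4 (0.96) followed the sum most closely, and Ifi44 (0.21), Isg20 (0.41) and Bst2 (0.47) least. The clusters share libraries and were made from the same genes, so these correlations describe the map of the genes and carry no test.

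**Figure D1:**
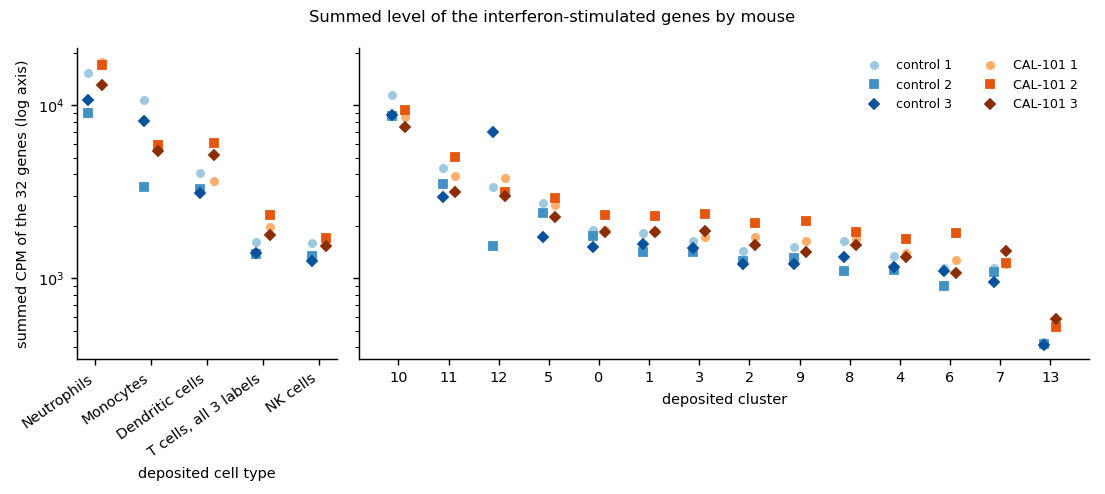
Summed level of the 32 interferon-stimulated genes in CPM (log axis) in each mouse, by deposited cell type with at least 10 cells in every mouse (left) and by deposited cluster (right), ordered by mean; blue symbols are control mice and orange symbols CAL-101 mice. Neutrophils and cluster 10 lie highest, and in T cells the 3 CAL-101 mice (1773 to 2338 CPM) lie above the 3 control mice (1381 to 1615 CPM).

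Whether the transferred T cells differed in this programme between the groups was asked with edgeR's quasi-likelihood test on counts summed per mouse, with Benjamini-Hochberg adjustment over all genes tested and a threshold of 0.05. In T cells, 19 of the 32 genes were higher in CAL-101 tumours (59.4%), where 9.46% of the 16734 genes tested were called higher. The median difference of the 32 genes was 0.52 on the log2 scale, against 0.00 over all genes. None was called lower, where 9.63% of all genes were, and Ifi204 was the only gene with a value below 0 (log2 -0.20, SE 0.20, unadjusted p = 0.340, adjusted p = 0.516 by edgeR). DESeq2 called 23 higher and 0 lower, against 10.3% and 10.4% of all genes. The summed level was 1615, 1381 and 1397 CPM in control mice 1 to 3 and 1993, 2338 and 1773 CPM in CAL-101 mice 1 to 3, or 1464 ± 131 and 2035 ± 285 CPM (SD, n = 3 each). The groups did not overlap, CAL-101 mouse 2 was highest and control mouse 2 lowest. Values of the single genes were without overlap and higher in CAL-101 mice at 23 of the 32, a pattern that 24.5% of all genes tested showed. The count of 19 was 12 without CAL-101 mouse 1 (6.39% of all genes), 10 without CAL-101 mouse 2 (7.70%) and 8 without control mouse 3 (3.87%). The 8 genes called whichever mouse was left out were Usp18, Ifit1, Oasl1, Ifih1, Dhx58, Ifi203, Rtp4 and Ifi35.

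**Figure D2:**
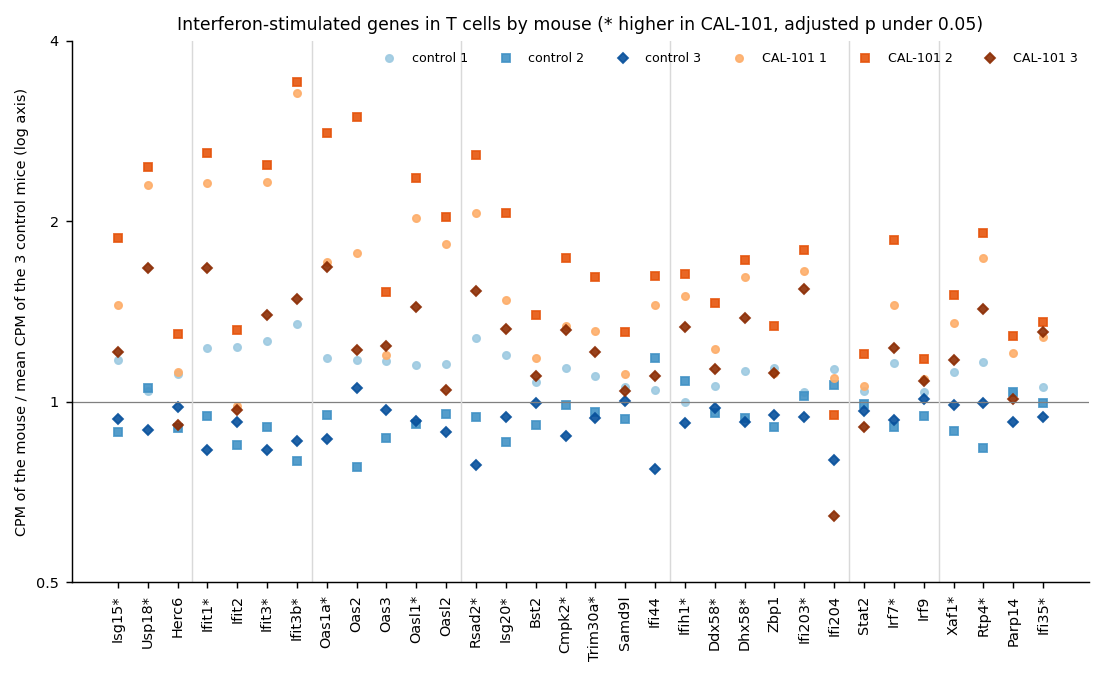
CPM of each gene in T cells of each mouse, divided by the mean of the 3 control mice (log axis), with grey lines between the role groups and an asterisk at genes called higher in CAL-101 tumours by edgeR. Usp18, Ifit1 and Ifi203 lie well apart between the groups, Herc6, Ifit2 and Stat2 do not, and CAL-101 mouse 2 (orange squares) is the highest mouse for most genes.

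The ubiquitin-like modifier system had 2 of 3 genes higher. Usp18 removes ISG15 from proteins and also binds IFNAR2 to dampen receptor signalling; it measured 31.1, 31.4 and 26.8 CPM in control mice 1 to 3 and 68.4, 73.4 and 49.8 CPM in CAL-101 mice 1 to 3. All 3 CAL-101 mice lay above all control mice, and the difference was log2 1.06 (SE 0.13, edgeR adjusted p = 0.00203). Isg15 measured 149, 113 and 119 CPM in control and 184, 238 and 154 CPM in CAL-101 mice, again without overlap but with control mouse 1 close to CAL-101 mouse 3. Its difference of log2 0.56 (SE 0.16, adjusted p = 0.0423) lost its call without control mouse 2 or 3 or CAL-101 mouse 1 or 2. Herc6, the main ligase that attaches ISG15 in mice, measured 69.4, 56.4 and 61.0 against 70.0, 80.9 and 57.1 CPM and overlapped (log2 0.11, adjusted p = 0.546).

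The IFIT family, whose proteins bind viral RNA lacking host cap marks, had 3 of 4 genes higher. Ifit1 measured 16.1, 12.4 and 10.9 CPM in control and 30.4, 34.1 and 21.9 CPM in CAL-101 mice (log2 1.09, SE 0.18, adjusted p = 0.00594), with no overlap. Ifit3, a partner of other IFIT proteins, measured 14.9, 10.7 and 9.80 against 27.4, 29.3 and 16.5 CPM (log2 1.00, SE 0.22, adjusted p = 0.0185). Ifit3b, a near-identical copy of Ifit3, measured 1.93, 1.14 and 1.23 against 4.68, 4.89 and 2.12 CPM (log2 1.38, SE 0.33, adjusted p = 0.0228). In both, CAL-101 mouse 3 lay nearest to the controls, and both lost their call without control mouse 3, CAL-101 mouse 1 or CAL-101 mouse 2; how the authors' counting split reads between these copies is not given, so that their separate levels are uncertain. Ifit2, which is linked to cell death as well as to RNA binding, did not move with its relatives: it measured 16.3, 11.2 and 12.2 CPM in control and 13, 17.4 and 12.8 CPM in CAL-101 mice (log2 0.08, SE 0.16, adjusted p = 0.754).

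The oligoadenylate synthetase family makes the second messenger that switches on RNase L, apart from Oasl1, which represses translation of Irf7. Of the 5 genes, 2 were higher. Oasl1 measured 12.8, 10.2 and 10.3 CPM in control and 22.5, 26.2 and 16.0 CPM in CAL-101 mice (log2 0.91, SE 0.17, adjusted p = 0.00914). Oas1a measured 9.94, 8.01 and 7.28 against 14.4, 23.6 and 14.1 CPM (log2 1.01, SE 0.21, adjusted p = 0.0135), and lost its call without control mouse 3. Neither gene overlapped between the groups, and in both CAL-101 mouse 2 was highest. Oas2 had a similar fold, 1.75, 1.16 and 1.57 against 2.64, 4.44 and 1.82 CPM, and did not pass (log2 0.95, SE 0.31, adjusted p = 0.0668). Oasl2 measured 6.92, 5.71 and 5.34 against 11, 12.2 and 6.28 CPM, with CAL-101 mouse 3 inside the control range (log2 0.67, adjusted p = 0.0726). Oas3 was at log2 0.36 (adjusted p = 0.0814).

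Among the other antiviral effectors 4 of 7 tested genes were higher. Rsad2, which makes a chain-terminating nucleotide, measured 11, 8.12 and 6.75 CPM in control and 17.8, 22.2 and 13.2 CPM in CAL-101 mice (log2 1.00, SE 0.22, adjusted p = 0.0162). Cmpk2, its neighbour in the genome and a nucleotide kinase that feeds it, measured 10.7, 9.28 and 8.24 against 12.6, 16.3 and 12.4 CPM (log2 0.51, SE 0.13, adjusted p = 0.0316). Both were without overlap; Rsad2 lost its call without control mouse 3, and Cmpk2 without control mouse 3 or CAL-101 mouse 2 or 3. Trim30a, of the tripartite motif family, measured 126, 109.6 and 107 against 149.9, 184 and 138 CPM (log2 0.42, SE 0.11, adjusted p = 0.0313). Isg20, an exonuclease that degrades RNA, measured 56.2, 40.2 and 44.3 against 69.3, 97.0 and 62.1 CPM (log2 0.66, SE 0.17, adjusted p = 0.0330). These were also without overlap, and each lost its call without control mouse 2 or 3 or without CAL-101 mouse 2, Trim30a also without CAL-101 mouse 1. Bst2, which encodes tetherin, a protein that holds budding virus on the cell, measured 227 ± 18.6 and 279 ± 34.3 CPM (SD, n = 3 each; log2 0.26, SE 0.09, adjusted p = 0.0889) and did not pass, as did Samd9l (0.17, adjusted p = 0.216) and Ifi44 (0.44, adjusted p = 0.150).

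Of the nucleic acid sensors 4 of 6 were higher, among them the gene with the smallest p of the 32. Ifi203, a nuclear protein of the DNA-sensing HIN-200 family, measured 129, 127 and 117 CPM in control and 205, 222 and 191 CPM in CAL-101 mice (log2 0.69, SE 0.07, adjusted p = 0.000686). Each group was tight around its mean, with the lowest CAL-101 mouse far above the highest control mouse. Ifih1, which encodes the RNA sensor MDA5, measured 36.5, 39.5 and 33.6 against 54.8, 59.6 and 48.6 CPM (log2 0.53, SE 0.09, adjusted p = 0.00549). Dhx58, which encodes LGP2, a regulator of MDA5 and RIG-I, measured 16.9, 14.1 and 13.9 against 24.2, 25.9 and 20.7 CPM (log2 0.61, SE 0.10, adjusted p = 0.00629). Ddx58, which encodes RIG-I, measured 53.0, 47.8 and 48.7 against 61.0, 72.8 and 56.6 CPM (log2 0.31, SE 0.09, adjusted p = 0.0488). All 4 were without overlap, but Ddx58 lost its call whichever of the 6 mice was left out. Zbp1, a sensor of Z-form nucleic acid (log2 0.21, adjusted p = 0.196), and Ifi204 did not pass, and HIN-200 genes such as Ifi203 and Ifi204 lie in a cluster of close paralogs whose reads may be split.

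The transcription factors of the response were the least moved. Irf7, the factor that amplifies type I interferon genes and is itself induced, measured 64.9, 50.7 and 52.2 CPM in control and 81.2, 104 and 68.8 CPM in CAL-101 mice (log2 0.56, SE 0.15, adjusted p = 0.0343), without overlap; the call was lost without control mouse 2 or 3 or CAL-101 mouse 1 or 2. Irf9, the DNA-binding part of ISGF3, measured 38.0, 34.7 and 37.0 against 39.9, 43.1 and 39.6 CPM, a gap without overlap that did not pass (log2 0.12, SE 0.06, adjusted p = 0.197). Stat2, its partner, measured 33, 31.5 and 30.6 against 33.7, 38.1 and 28.8 CPM and overlapped (log2 0.04, SE 0.09, adjusted p = 0.807). Among the other induced genes 3 of 4 were higher. Ifi35, a partner of NMI, measured 86.5, 81.3 and 77.2 against 105, 111 and 107 CPM (log2 0.36, SE 0.06, adjusted p = 0.00562), and Rtp4, a chaperone that binds viral RNA, measured 34.6, 24.9 and 29.6 against 51.6, 56.9 and 42.4 CPM (log2 0.72, SE 0.13, adjusted p = 0.00896). Both were without overlap. Xaf1, an antagonist of inhibitors of apoptosis, measured 57.8, 46.1 and 51.0 against 69.8, 77.8 and 60.7 CPM (log2 0.39, SE 0.10, adjusted p = 0.0348), a call lost without control mouse 2 or 3 or CAL-101 mouse 1 or 2. Parp14, a mono-ADP-ribosyltransferase, measured 73.9, 73.8 and 65.7 against 85.8, 91.4 and 72.0 CPM (log2 0.18, adjusted p = 0.190) and overlapped.

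Whether the rise was carried by many T cells or by a few was read from single cells, each thinned at random to 3000 UMIs so that depth was the same; 25632 T cells reached that depth (75.8 to 80.9% per mouse), and 3540 control and 3689 CAL-101 cells were left out. The mean number of UMIs of the 32 genes per T cell was 5.07, 4.29 and 4.37 in control mice 1 to 3 and 6.26, 7.26 and 5.70 in CAL-101 mice 1 to 3, or 4.58 ± 0.427 and 6.40 ± 0.790 (SD, n = 3 each). The increase was thus 39.9%. Nearly every T cell held at least 1 such UMI: the share with 0 was 4.92% ± 1.07 among control and 2.86% ± 0.839 among CAL-101 mice, without overlap. The lower quartile was 2 UMIs in each control mouse and 3 in each CAL-101 mouse, the medians averaged 3.67 and 5 and overlapped, and the 90th percentiles averaged 9 and 12.3 without overlap. Cells with 1 to 2 UMIs went from 27.2% ± 3.09 to 18.2% ± 4.16, cells with 5 to 6 were at 18.6% ± 1.43 and 19.3% ± 0.607, cells with 7 to 9 went from 12.3% ± 1.98 to 17.8% ± 2.04, and cells with 15 or more from 2.50% ± 0.794 to 7.12% ± 2.08.

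Leaving out the highest cells of each mouse changed the ratio little. Without the highest 1%, 5% and 10% of T cells the mean was 39.7%, 38.4% and 37.8% higher in CAL-101 than in control mice, and after the last step it was 3.61 ± 0.371 and 4.98 ± 0.670 UMIs, still without overlap. The same trim on a list of 15 cell cycle genes, a programme of part of the cells, did not shrink its increase either (36.5% with all cells, and 38.0%, 41.9% and 46.9% without the highest 1%, 5% and 10%), so that this trim does not by itself tell a spread rise from one in part of the cells. The highest 10% of cells held 29.0% ± 1.54 of the UMIs of these genes in control and 30.1% ± 0.890 in CAL-101 mice, and the highest 1% held 5.76% ± 0.823 and 5.88% ± 0.549. Both pairs overlapped. Counted in cells, the class with 7 to 9 UMIs went from 12.3% to 17.8% of T cells. The class with 10 to 14 went from 6.04% to 11.2%, and the class with 15 or more from 2.50% to 7.12%. Counted in UMIs, the upper tail gave the largest part, as each cell there counts 15 times or more. The 1.83 UMIs by which the means differed were made of 1.04 from cells with 15 UMIs or more, 0.598 from cells with 10 to 14 and 0.443 from cells with 7 to 9. Cells with 5 to 6, 3 to 4 and 1 to 2 UMIs gave 0.0454, -0.165 and -0.137. A cell that moves up a class is a loss in the class it leaves, so these parts are not shares of the rise. The variance divided by the mean was 3.47 ± 0.557 and 5.01 ± 0.276. The cell cycle genes had 32.3% ± 1.19 of control and 22.8% ± 1.77 of CAL-101 T cells at 0, and 41.4% ± 0.509 and 36.9% ± 1.20 of their UMIs in the highest 10% of cells.

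T cells detected 3.97, 3.43 and 3.55 of the 32 genes per cell in control mice 1 to 3 and 4.66, 5.32 and 4.33 in CAL-101 mice 1 to 3. Usp18 had a UMI in 8.68% ± 0.553 of control and 16.0% ± 2.38 of CAL-101 T cells (SD, n = 3 each), while a cell with any Usp18 UMI held 1.12 and 1.24 of them. Ifit1 was seen in 3.38% ± 0.663 and 6.98% ± 1.17 of cells, Isg15 in 23.9% ± 2.68 and 31.5% ± 5.11, and Ifi203 in 29.6% ± 1.52 and 42.5% ± 2.43. Over the 19 genes that rose, the share of cells with a UMI was 1.24 to 2.24 times the control share (median 1.59), and the number of UMIs per such cell 0.987 to 1.16 times (median 1.04). At a mean of about 1 UMI per positive cell these shares follow the mean level, and free RNA adds to them. A class that lacks Usp18 and Ifit1 was not found among the 3 classes tabulated: at the same depth Usp18 had a UMI in 10.8% and 14.6% and Ifit1 in 2.89% and 3.55% of NK cells of control and CAL-101 mice, and Ifit1 in 58.7% and 58.1% of neutrophils. Before thinning, the median T cell had 9136 UMIs, the median NK cell 6694 and the median neutrophil 3176.

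T cells with at least 10 UMIs of these genes at 3000 UMIs per cell, called high cells here, are set by a cutoff. Of 25632 cells 3491 were high, and 3557 cells, some of them high, lay at 8 to 11 UMIs. Random thinning also places cells near a cutoff, so these counts do not tell a range from a separate type. High cells made up 11%, 7.23% and 7.42% of T cells in control mice 1 to 3 and 17.4%, 23.4% and 14.2% in CAL-101 mice 1 to 3. They were found in each of clusters 1 to 5. Thinning kept 36.8 to 54.7% of cluster 1 cells per mouse and 79.0 to 93.9% of cluster 4 cells, so that the shares there are those of the deeper cells. Within cluster 1 their share was 9.65% ± 2.31 in control and 17.1% ± 4.60 in CAL-101 mice (SD, n = 3 each), within cluster 2 it was 5.55% ± 0.926 and 14.1% ± 4.31, and within cluster 3 it was 9.26% ± 3.22 and 18.0% ± 6.20, without overlap in all 3. Within cluster 4 it was 3.6% ± 1.61 and 7.39% ± 2.54, with CAL-101 mouse 3 (4.77%) below control mouse 1 (5.41%). Cluster 5 had the highest shares, 23.6% ± 8.30 (92 to 178 thinned cells per control mouse) and 29.1% ± 6.61, and its groups overlapped. The median high cell held UMIs of 8 to 9 of the genes, against 3 to 4 in other T cells, and was no deeper before thinning (10222 to 13027 UMIs, against 11816 to 14333).

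**Figure D3:**
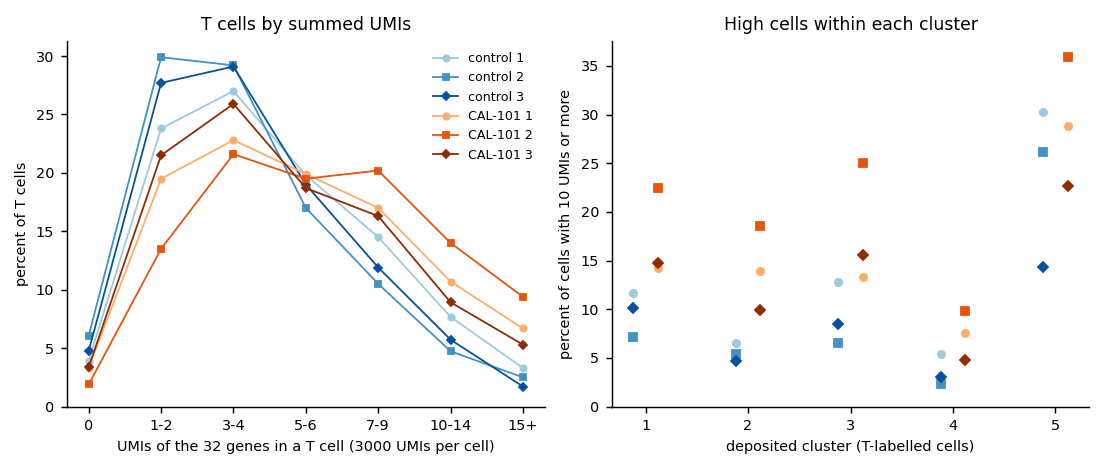
Left, percent of T cells of each mouse by their number of UMIs of the 32 genes after thinning to 3000 UMIs per cell; right, percent of T-labelled cells with 10 such UMIs or more within deposited clusters 1 to 5. Blue lines and symbols are control mice and orange ones CAL-101 mice: the CAL-101 mice have fewer cells at 1 to 2 UMIs (13.5 to 21.5%, against 23.8 to 29.9%) and more at 15 or more, and in clusters 1 to 3 all CAL-101 mice lie above all control mice.

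Tests within clusters asked whether the difference was there among T-labelled cells of 1 deposited cluster. The clusters also differ in depth, so they are not only kinds of T cell. The median cell held 2832 UMIs in cluster 1 and 4773 in cluster 4, against 25739 in cluster 2. In cluster 1, 11 of 32 genes were higher (edgeR; 5.72% of 11549 genes tested), in cluster 2, 13 of 32 (5.94% of 14012), in cluster 3, 5 of 32 (3.26% of 12806) and in cluster 4, 7 of 30 (3.68% of 11443). In cluster 5 edgeR called 0 of 32 (2.45% of 11888 genes), with 6 at an unadjusted p under 0.05, and DESeq2 called 0. Cluster 5 held 179, 92 and 107 T cells in control mice 1 to 3 and 885, 1393 and 1271 in CAL-101 mice 1 to 3, so its control values rest on few cells. The median log2 difference of the genes was 0.35, 0.53, 0.38, 0.31 and 0.10 in clusters 1 to 5, and over all genes tested in each cluster it was at most 0.01. Without CAL-101 mouse 2 it was 0.29, 0.21 and 0.14 in clusters 2, 3 and 4. In cluster 5 it ran from -0.02 without control mouse 3 to 0.30 without control mouse 1, and was 0.03 without CAL-101 mouse 2 and 0.20 without CAL-101 mouse 3. Usp18 and Ifi203 were higher in all of clusters 1 to 4, 18 of the genes in at least 1 of them and 10 in at least 2. A value above 0 in each of these 4 clusters where they were tested was held by 24. How many of all genes met these criteria across clusters was not counted, so these counts only describe the list.

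Single genes differed in how far they followed. Usp18 measured 45.0, 31.1 and 34.0 CPM in control and 67.3, 73.1 and 56.4 CPM in CAL-101 mice in cluster 1 (log2 0.81, edgeR adjusted p = 0.00429), and rose by log2 0.99, 1.01 and 0.71 in clusters 2, 3 and 4 (adjusted p = 0.00575, 0.00600 and 0.00806). In cluster 5 it measured 63.9, 55.1 and 31.5 against 89.1, 94.1 and 61.2 CPM (log2 0.61, adjusted p = 0.128), with CAL-101 mouse 3 below control mouse 1. Ifit1 rose in cluster 2, from 9.75, 7.95 and 5.13 to 20.2, 25.4 and 14.7 CPM (log2 1.34, adjusted p = 0.0118), and in cluster 4 (log2 0.85, adjusted p = 0.0298, lost without any mouse but CAL-101 mouse 3). It did not pass in cluster 1 (0.12, adjusted p = 0.728), cluster 3 (0.68, adjusted p = 0.0672) or cluster 5 (0.16, adjusted p = 0.834), where it was already at 66.9, 48.0 and 14.2 CPM in the control mice. Ifit3 passed in cluster 2 (1.27, adjusted p = 0.0264, lost without control mouse 3 or CAL-101 mouse 1 or 2) and not in clusters 1, 3, 4 and 5 (-0.13, 0.62, 0.63 and 0.09). Isg15 passed in none (0.02, 0.48, 0.45, 0.03 and 0.10 in clusters 1 to 5), nor did Irf7 (0.46, 0.55, 0.36, 0.40 and 0.18), Stat2 (0.22, 0.01, -0.16, -0.09 and -0.32) or Bst2 (-0.05, 0.23, 0.16, 0.22 and 0.16). The counts depended on single mice, as did the number of all genes called in the same fits. Cluster 1 had 4 without control mouse 3 (301 of 11576 genes) and 7 without CAL-101 mouse 3 (347 of 12008), and cluster 2 had 6 without control mouse 3 (316 of 14433). Cluster 3 had 2 without control mouse 3 (152 of 12802), CAL-101 mouse 2 (189 of 13318) or CAL-101 mouse 3 (86 of 13314), 3 without control mouse 1 (183 of 12825) and 9 without CAL-101 mouse 1 (307 of 13333). Cluster 4 had 2 without control mouse 3 (232 of 11735), 3 without CAL-101 mouse 2 (405 of 11693) or 3 (220 of 11677), and 4 without control mouse 2 (512 of 11723) or CAL-101 mouse 1 (260 of 11683). Cluster 5 had 1 without CAL-101 mouse 3 (180 of 10000).

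That clusters 1 to 4 held calls and cluster 5 none does not show that cluster 5 differed. The difference itself was tested by taking, in each mouse, log2 CPM of cluster 5 minus that of clusters 1 to 4 and fitting these values with limma, a test chosen after the cluster counts were seen. It called 0 of the 32 genes (2 at an unadjusted p under 0.05; no other tool was run), and over 11888 genes 0 were called higher (0%) and 2 lower (0.0168%). The median of the 32 genes was -0.18, against 0.05 over all genes. It was -0.02 without control mouse 2, -0.07 without control mouse 1 and -0.38 without control mouse 3, where 19 genes had an unadjusted p under 0.05, and 0 genes were called whichever mouse was left out.

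**Figure D4:**
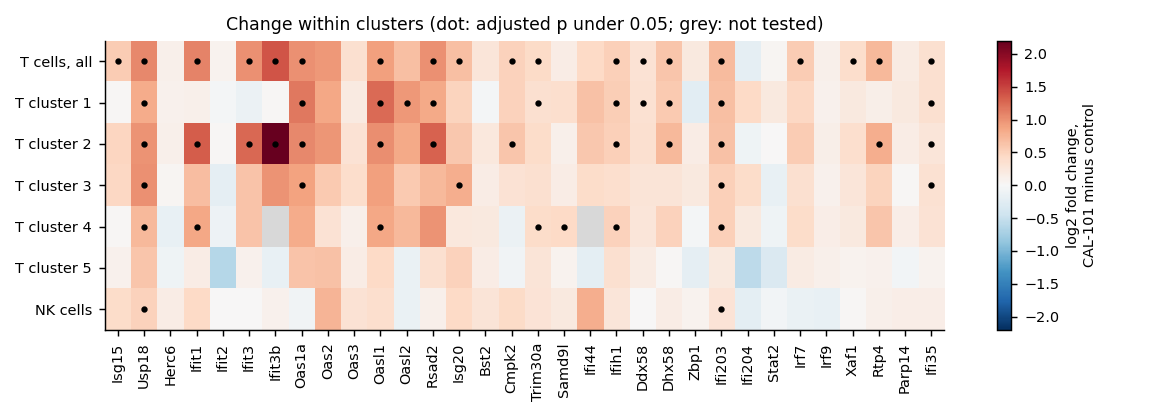
Log2 fold change of each gene between CAL-101 and control mice in all T cells, in T-labelled cells of clusters 1 to 5 and in NK cells (colour scale), with a dot where edgeR's adjusted p was under 0.05 and grey where the gene was not tested. Dots are spread over clusters 1 to 4, at Usp18 and Ifi203 in all 4 of them, and there are none in cluster 5.

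The make-up of the T cells differed too: among T-labelled cells of clusters 1 to 5, cluster 5 took 2.72% (control) and 24.8% (CAL-101) on average, and cluster 3 held 32.2% and 8.30%. Weights in what follows are shares of UMIs, not of cells: cluster 3 held 32.5 to 44.5% of UMIs in control mice and 6.95 to 13.5% in CAL-101 mice, and cluster 5 held 2.53 to 3.59% and 24.1 to 28.9%. With each mouse's own shares, the summed level in clusters 1 to 5 was 1445 ± 135 and 2029.9 ± 290.2 CPM (SD, n = 3 each), a difference of 585 CPM. Weighted by the mean shares of the 6 mice, it was 1519 ± 167 and 1963 ± 277 CPM, a difference of 443 CPM and a ratio of 1.29 in place of 1.40. Weighted in this way the control mice were at 1707, 1465 and 1386 CPM and the CAL-101 mice at 1859, 2276 and 1752 CPM, still without overlap. Cluster 5 alone supplied 8.15% of the high cells in control and 44.7% in CAL-101 mice.

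NK cells come from the host and were not in the drug culture; they show whether the genes also differed in other cells of the same tumours. In NK cells 2 of the 32 genes were higher, where 2.97% of 14028 genes were called higher, and 11 had an unadjusted p under 0.05. The median was 0.15, against -0.00 over all genes, and was 0.28 without control mouse 1, 0.25 without CAL-101 mouse 3 and 0.10 without control mouse 3. DESeq2 called 6 (3.93% of all genes). Usp18 measured 45.1, 42.7 and 35 CPM in control and 58.9, 63.1 and 56.2 CPM in CAL-101 mice (log2 0.50, SE 0.10, edgeR adjusted p = 0.0288). Ifi203 measured 126, 119 and 103 against 148, 144 and 147 CPM (log2 0.30, SE 0.07, adjusted p = 0.0487). These are also the genes that rose in each of T cell clusters 1 to 4, but here both lost their call without any mouse except control mouse 2. The share of all genes called higher was then 0.0689% without control mouse 1, 0.0282% without control mouse 3, and 0.623%, 1.66% and 0.00695% without CAL-101 mouse 1, 2 and 3. Ifi44, of unsettled biochemical function, measured 15.2, 9.23 and 8.40 against 17.5, 21.0 and 20.1 CPM (log2 0.80, SE 0.21, adjusted p = 0.0570), and Isg15 measured 105, 85.7 and 78.2 against 122, 136 and 105 CPM (log2 0.40, SE 0.12, adjusted p = 0.0905). Neither passed, with Isg15 close to touching between control mouse 1 and CAL-101 mouse 3. The summed level was 1403 ± 179 and 1639.5 ± 90.2 CPM and overlapped. Values were without overlap and higher at 11 of the 32 genes, against 16.3% of all genes tested. Melanoma markers were higher too in the NK sums, at 1.85 to 3.59 CPM in control and 4.70 to 78.5 CPM in CAL-101 mice for 5 genes together, 3 of them called higher; their part in the result was not tested.

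**Figure D5:**
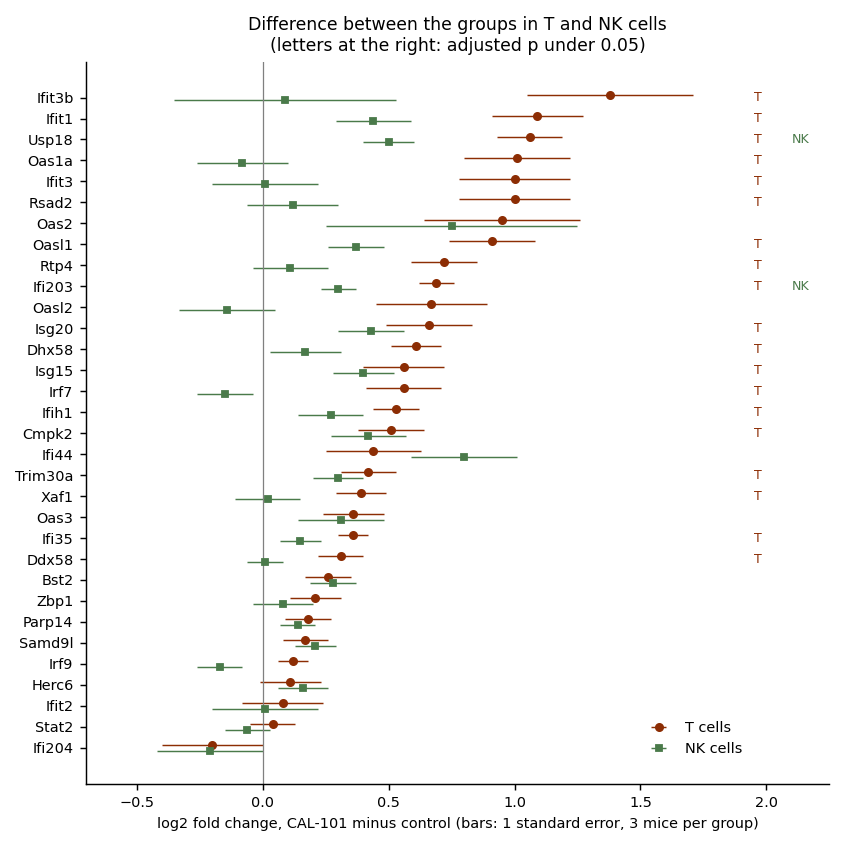
Log2 fold change of each gene between CAL-101 and control mice with 1 standard error (3 mice per group), in T cells (circles) and NK cells (squares), ordered by the T cell value; letters at the right mark adjusted p under 0.05. In T cells the values reach 1.38 (Ifit3b) and 19 genes are marked, while in NK cells Usp18 (0.50) and Ifi203 (0.30) are.

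Whether T and NK cells differed in their response was tested with limma on log2 CPM of T cells minus that of NK cells in each mouse. Ifit3 (0.97, SE 0.13, limma adjusted p = 0.0455) and its copy Ifit3b (1.57, SE 0.17, adjusted p = 0.0349) rose more in T cells than in NK cells, 2 of 32 genes where 0.324% of 13901 genes were called so. The value of Ifit3b rests on low counts, as NK cells held 116 of its UMIs in all (0.381 to 1.55 CPM per mouse). The median over the genes was 0.27 and over all genes 0.00. Rtp4 (0.60, adjusted p = 0.0502), Irf7 (0.70, adjusted p = 0.0651) and Rsad2 (0.91, adjusted p = 0.0701) came next and did not pass. The 2 calls depended on single mice. The count was 1 without CAL-101 mouse 1 (10 of 14010 genes), and 0 without each of the other mice, where at most 1 of all genes was called. It was also 0 with a prior count of 0.5 in place of 2 (23 of 13901 genes). Cells labelled monocytes (at least 34 per mouse) had 0 of 31 genes called by edgeR among 5906 tested, where 0% were called at all. Of the 31, 4 had an unadjusted p under 0.05, the median was -0.45, and no other tool was run. The summed level in neutrophils (at least 13 cells per mouse) was 11719.5 ± 3275 CPM in control and 16037 ± 2514 CPM in CAL-101 mice (SD, n = 3 each). In dendritic cells (at least 11) it was 3495 ± 525 and 4954 ± 1215 CPM. The ratios were 1.37 and 1.42, beside 1.39 in T cells and 0.764 in monocytes. Both neutrophils and dendritic cells overlapped between the groups and were not tested.

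Of the products of these genes, the antibody panel held CD317, the protein of Bst2. It took 0.142%, 0.155% and 0.152% of the antibody tags of T cells in control mice 1 to 3 and 0.179%, 0.175% and 0.183% in CAL-101 mice 1 to 3, without overlap. After edgeR's scaling over the 102 antibodies the difference was log2 0.10 (SE 0.06, adjusted p = 0.311), where 6.86% of antibodies were called higher, and it did not pass. In NK cells CD317 took 0.133% ± 0.00391 and 0.188% ± 0.0370 of tags (SD, n = 3 each; log2 0.23, SE 0.09, adjusted p = 0.180; 0% of antibodies called higher), and passed without CAL-101 mouse 1 (0.32, adjusted p = 0.0447). The signal was low, 1.86 to 2.21 times the highest isotype control in T cells and 1.35 to 1.64 times in NK cells.

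The rest of the pathway was read from 6 further lists of 116 genes, of which 95 were tested in T cells; 26 were higher and 6 lower, where 9.46% and 9.63% of all genes were. Without control mouse 3 the number higher was 10 (3.87% of all genes), and without control mouse 2 the number lower was 10 (1919 of 17152 genes). Few ligand UMIs were seen. The 13 type I and type III interferon genes with a row together had 5 to 12 UMIs per library over all cells (7, 10 and 5 in control mice 1 to 3 and 10, 8 and 12 in CAL-101 mice 1 to 3), and Ifnb1, Ifna1 and Ifna5 had 0 in T cells; the Ifna genes are close copies of each other, and 3′ counts from few cells do not give the amount of protein. Ifng, the type II interferon, was instead at 362, 608 and 452 CPM in control and 381, 376 and 364 CPM in CAL-101 mice (log2 -0.39, SE 0.16, adjusted p = 0.132), with control mouse 1 below every CAL-101 mouse.

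The receptors and their signalling genes had 1 of 11 higher, a share near that of all genes (9.46%), and 2 lower. Ifnar1 measured 104 ± 3.26 CPM in control and 88.8 ± 8.03 CPM in CAL-101 mice (SD, n = 3 each; log2 -0.27, SE 0.07, adjusted p = 0.0300), and Ifnar2, the high-affinity chain, measured 48.2, 51.2 and 50.1 against 58.1, 69.9 and 58.1 CPM (log2 0.28, SE 0.08, adjusted p = 0.0425). The chains of 1 receptor thus moved in opposite directions, each without overlap; Ifnar1 lost its call without control mouse 1 or 3 or CAL-101 mouse 1 or 3, and Ifnar2 without control mouse 1 or 3 or CAL-101 mouse 2 or 3. The interferon gamma receptor genes Ifngr1 (-0.06, adjusted p = 0.653) and Ifngr2 (-0.37, adjusted p = 0.344) did not pass, nor did Jak1 (-0.14, adjusted p = 0.0950). Irf8, a factor of activated T cells and myeloid cells, fell from 195, 261 and 191 to 143, 118 and 123 CPM (log2 -0.79, SE 0.13, adjusted p = 0.00550).

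Among 12 tested genes of nucleic acid sensing outside the 32, 4 were higher and 1 lower. Tlr7, the endosomal sensor of single-stranded RNA, rose from 2.28, 2.11 and 1.80 to 7.67, 6.53 and 4.03 CPM (log2 1.51, SE 0.23, adjusted p = 0.00394), and Trim25, a ligase that acts on RIG-I signalling, by log2 0.39 (adjusted p = 0.00468). Irf3, the factor that starts interferon gene transcription, rose by 0.24 (adjusted p = 0.0164) and Ikbke, a kinase that activates it, by 0.37 (adjusted p = 0.0209), both lost without control mouse 1 or 3 or CAL-101 mouse 1, and Aim2, a sensor of cytosolic DNA that forms inflammasomes, fell by 0.35 on the log2 scale (adjusted p = 0.00307). Of 9 tested negative regulators 4 were higher: Socs3 (0.50, adjusted p = 0.00420) and Socs1 (0.51, adjusted p = 0.00543), which block JAK kinases, the phosphatase gene Ptpn6 (0.45, adjusted p = 0.00532), and Irf2bp2 (0.48, adjusted p = 0.0130, lost without control mouse 1 or 3).

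Of 41 further interferon-stimulated genes tested, 13 were higher and 3 lower, with a median of 0.25. Phf11b rose from 61.5 ± 7.51 to 94.6 ± 7.60 CPM (SD, n = 3 each; log2 0.58, adjusted p = 0.00579), Ly6a, which encodes the surface protein Sca-1, from 389.9 ± 39.0 to 577 ± 31.0 CPM (0.53, adjusted p = 0.00475), and Helz2, a coactivator, by 0.50 (adjusted p = 0.00599). Ifitm3, which hinders virus entry, fell: it measured 684, 727 and 646 CPM in control and 225, 383 and 272 CPM in CAL-101 mice (log2 -1.26, SE 0.17, adjusted p = 0.00274). Of 21 tested genes tied mainly to interferon gamma, 4 were higher, with a median of 0.05. Cxcl10, a chemokine gene that both interferon types induce, measured 43.6 ± 7.47 against 154 ± 56.9 CPM (SD, n = 3 each) without overlap (log2 1.78, SE 0.25, adjusted p = 0.00293). Psmb9 (0.24, adjusted p = 0.0235), Irgm1 (0.36, adjusted p = 0.0298) and Nlrc5 (0.19, adjusted p = 0.0431) were the other higher ones, each lost without 3 or more of the mice, and no guanylate-binding protein gene of the list passed (Gbp5, with the smallest p of them, was at log2 -0.29, adjusted p = 0.0591).

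Other cells and states moved beside these results. Of 15 cell cycle genes, 14 were higher in each of T and NK cells. Clusters 0, 7, 8, 9 and 13, which NK cells lead, held 7.97 to 16.6% of the T class in control and 2.17 to 9.32% in CAL-101 mice, and T-labelled cells of cluster 6 (1709 cells) had a median of 881 UMIs and 34.1% mitochondrial UMIs. NK cell markers summed to 160.2 to 300.1 CPM in control and 96.3 to 202 CPM in CAL-101 T cells, and dendritic cell markers to 251 to 573 and 145 to 208 CPM. The dendritic sum was mostly Ccr7 (213, 521 and 220.1 against 152, 114 and 103 CPM), which T cells also express; Zbtb46 overlapped, and Flt3, Xcr1, Clec9a and Cd209a lay under 1 CPM. Monocyte and macrophage markers summed to 459 to 665 CPM in control and 564 to 839 CPM in CAL-101 T cells, with 2 of 6 called higher, and most of the sum was Ly6c2 (457 to 837 CPM). Lyz2 was at 0.139 to 0.312 and 0.638 to 1.98 CPM and C1qa at 0 to 0.110 and 0.194 to 0.775 CPM. The part of these cells in the result was not tested in the whole T class. In clusters 1 to 5 the monocyte markers summed to 484 to 681 and 582 to 846 CPM with 0 of 6 called higher by edgeR, and the dendritic markers still differed (258 to 619.6 and 147 to 218 CPM). With T cells of clusters 1 to 5 alone, where NK markers summed to 58.2 to 66.9 and 53.7 to 69.1 CPM, 20 of the 32 genes were higher (8.41% of all genes). Neutrophil markers, from the cells highest in the 32 genes, summed to 1.82 to 27.0 CPM in control and 3.28 to 15.8 CPM in CAL-101 T cells, and in clusters 1 to 5 to 1.72 to 5.71 and 1.07 to 1.41 CPM, lower in the CAL-101 mice. Of the plasmacytoid dendritic cell markers, Siglech was at 0 to 0.0570 CPM in T cells of each mouse, and Bst2, also in that list, is one of the 32 genes. The others of the list were not near 0. Ccr9 was at 1.31 to 1.73 CPM in control and 1.62 to 2.26 CPM in CAL-101 T cells. Tcf4 was at 27.3 to 33.6 and 20.3 to 28.4 CPM. With cells of over 20% mitochondrial UMIs or under 1000 UMIs left out, 19 of the 32 genes were higher (9.26% of all genes).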

How the data were processed

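RNA of 6 mice was analysed, 3 per group, with antibody tags from the same cells. The authors deposited raw UMI counts per gene and cell, and the file headers name Cell Ranger 7.1.0; mm10 and Seurat are named per the submitters' processing notes, and the sources used here do not give the annotation, the cell filters or the strand setting. Cell types and clusters are the authors' deposited labels. Of 32285 gene identifiers 32158 matched the name table. Replicates are separate mice. Counts were summed per mouse and class, since cells are not replicates, and tested with edgeR 4.0.16 (filterByExpr, TMM, quasi-likelihood), with limma 3.58.1 (prior count 2) for differences of effects, DESeq2 1.42.0 as an alternative, R 4.3.3 and Python 3.11.15. CPM values are shares of all gene UMIs of a class. Doublets were not called. The tests were tested on simulated data. The genes and the other lists were chosen with earlier results of these data known; values per mouse are given for up to 4 genes per role by smallest p in T cells, up to 4 in NK cells, 7 genes in the clusters, all ligands and receptors by rule, and up to 4 of each other list. Alternatives were another normalisation, no filter, left-out mice or cells, a replicate block, other depths, trims and weights.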

Additional observations from a re-analysis of the deposited data

Results flagged for a closer look

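Ifit3 and Ifit3b stood out because the difference between CAL-101 and control mice was itself larger in T cells than in NK cells, by log2 0.97 for Ifit3 and 1.57 for Ifit3b (limma adjusted p = 0.0455 and 0.0349). In T cells both rose (1.00 and 1.38 by edgeR), and in NK cells they were at 0.01 and 0.09 by edgeR. The edgeR values come from another fit than the limma differences and do not subtract to them exactly. Ifit3b had few RNA molecules in NK cells, 116 UMIs in all. It lay there at 0.782 to 1.52 CPM in control and 0.381 to 1.55 CPM in CAL-101 mice, so its 1.57 rests on low counts. Ifit3 and Ifit3b are near-identical copies whose reads may have been split or shared, so they may not be 2 separate observations. With a prior count of 0.5 in place of 2 neither passed.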

How the results depend on the processing

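The numbers of RNA molecules limit the low genes: Oas2, Ifit3b and Ifi44 lay under 5 CPM in both groups of T cells, and with 3 mice per group 1 mouse can decide a call. Brackets below give the number of all tested genes called in the same direction by the same fit. Of the 32 genes, 19 were higher in T cells with RLE size factors (1573 of 16734) and 21 with no filter on low counts (1657 of 25637). The number was 23 with DESeq2 (1729 of 16734) and 19 with the library size taken without the 32 genes (1588 of 16734). It was 20 in clusters 1 to 5 (1383 of 16450), and ran from 8 (664 of 17160) to 19 (839 of 16955 without CAL-101 mouse 3) with 1 mouse left out. With replicate numbers as a replicate block it was 12, all among the 19 (728 of 16734). Deviations of same-numbered mice from their group means correlated at -0.252, -0.242 and 0.00507 in T cells. They correlated at 0.0662, -0.0241 and -0.0948 in NK cells. Other pairs ran from -0.131 to 0.291 in T cells. With 3 mice per group these values show no pairing by number and cannot exclude it. In NK cells the number was 8 with no filter (747 of 23691), 6 with DESeq2 (551 of 14028) and 1 with the replicate block (297 of 14028). It was 1 in clusters 0, 7, 9 and 13 (113 of 13522). With 1 mouse left out it was 0 to 2 (1 of 14387 without CAL-101 mouse 3 to 923 of 14218 without control mouse 2). In cluster 1 it was 7 with DESeq2 (466 of 11549), 7 with the replicate block (403 of 11549) and 4 to 11 without 1 mouse (301 of 11576 and 445 of 12005). In cluster 2 it was 6 to 13 without 1 mouse (316 of 14433 and 1281 of 14508). In cluster 3 it was 8 with DESeq2 (519 of 12806), 2 with the replicate block (154 of 12806) and 2 to 9 without 1 mouse (307 of 13333 at 9). In cluster 4 it was 2 with the replicate block (236 of 11443) and 2 to 6 without 1 mouse (232 of 11735 and 248 of 11691). In cluster 5 it was 2 with the replicate block (279 of 11888) and 0 to 1 without 1 mouse (180 of 10000 at 1). The T minus NK count of 2 was 0 with a prior count of 0.5 (23 of 13901). It was 0 for T clusters 1 to 5 against NK clusters 0, 7, 9 and 13 (74 of 13346), and 0 to 1 without 1 mouse (10 of 14010 at 1). Genes of the other lists higher in T cells ran from 10 (664 of 17160) to 25 (1931 of 17152) without 1 mouse. Those lower were 10 with DESeq2 (1744 of 16734) and 4 (801 of 16955) to 10 (1919 of 17152) without 1 mouse. CD317 differed by 0.08 to 0.13 in T cells and by 0.19 to 0.32 in NK cells without 1 mouse. Without 1 mouse, the ratio of mean UMIs per T cell (1.40) was 1.31 to 1.48 and the standardised ratio (1.29) was 1.19 to 1.38. The ratio of summed CPM (1.39) was 1.29 to 1.48, and each of the 3 ratios was lowest without CAL-101 mouse 2. Among genes that had not passed, the sign turned for Herc6 (-0.01), Ifit2 (-0.07) and Stat2 (-0.06) without CAL-101 mouse 2, for Ifit2 (-0.02) without control mouse 2, and for Ifi204 (0.10) in clusters 1 to 5; Herc6 reached 0.23 and Ifit2 0.26 at most without 1 mouse, and the cause was not tested.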
